A study of Canis lupus familiaris with 124 samples.

Results

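The genes described here encode steps of a signalling route from the cell surface to transcription and growth. They are the ligand EGF, its receptor EGFR, the GTPase HRAS, the kinase JAK1, the transcription factor STAT3, the PI3K regulatory subunit PIK3R3 and the kinase PDPK1. These 7 genes were taken, by the Ensembl identifiers that the study pairs with their symbols, from 32183 genes of the CanFam3.1 annotation. Such pairs cover 1100 genes. They come from the study's text and from its lists of genes whose expression in the cell lines was correlated with drug resistance. The genes with a symbol are therefore not a random draw from all genes. They were measured by RNA sequencing in 8 canine cell lines and 9 original tumor tissues of 9 dogs with prostate adenocarcinoma (PAC), PAC metastasis or transitional cell carcinoma (TCC). The aim of the comparisons was to see how far cultured cells keep the expression of these signalling genes of the tumors they came from.

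The TCC cell lines were TCC0840 (male neutered Pitbull Terrier, 10 years, patient 5), TCC1506 (female Labrador Retriever, 10 years, patient 7, from the bladder tumor B7) and TCC1509 (male neutered Bolonka Zwetna, 9 years, patient 6, from the prostate tumor P6.1). The PAC cell lines were Adcarc0846 (male German Rough-haired Pointer, 6 years, patient 2, from P2), Adcarc1508 (male neutered dog of mixed breed, 11 years, patient 3) and Adcarc1511.1 (male neutered Dobermann, 6 years, patient 4). The same Dobermann gave Metadcarc1511.2 and Metadcarc1511.3, which were grown from its metastases Ln4.2 and Ln4.3, respectively. The other tissues were the bladder TCC B8 (female Cairn Terrier, 11 years), B9 (female neutered Miniature Pinscher, 8 years) and B10 (female German Shepherd, 8 years) and the TCC metastasis Ln6.2 of patient 6. No cells were given a drug. All lines were grown in medium with fetal calf serum, a source of growth factors that tissues do not share, and were between passages 68 and 448. TCC0840 was established from a needle biopsy, and the study describes lymphoid and connective tissue in Ln4.2 and Ln4.3. TCC0840 and Adcarc0846 had 2 libraries, the other 6 lines 3 libraries and each tissue 1 library. The libraries of a line were grown in separate flasks, mostly at different passages, so that their spread is that of a culture and not that of tumors or dogs.

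EGF binds EGFR, a receptor tyrosine kinase of epithelial cells, which passes the signal through RAS proteins to the MAP kinases and through PI3K to AKT. PI3K consists of a catalytic and a regulatory subunit, of which PIK3R3 encodes one form, and its lipid product brings AKT to the membrane, where PDPK1 phosphorylates it. JAK kinases such as JAK1 sit on cytokine receptors and phosphorylate STAT proteins. STAT3 is also reached from EGFR and is a main transducer of IL6 signals. EGFR is a known drug target in urothelial and other carcinomas.

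The cell line libraries held between 15355798 and 19935282 counts and the tissues between 11920463 and 18086895. Levels are given as CPM, the counts of a gene scaled to library size with TMM factors, which correct for differences in library composition. Epithelial markers were present in all lines, with a summed CPM of 8 genes between 702.8 (TCC1509) and 3313 (TCC1506), and between 211.4 (P2) and 3543 (B8) in the tissues. The 12 leukocyte markers summed to between 0.811 and 270.9 CPM in the lines and between 191.7 (B7) and 4710 (P2) in the tissues. The 6 fibroblast markers summed to between 12.8 and 997.7 CPM in the lines and between 467.2 (B7) and 97410 (P2) in the tissues, and the 4 endothelial markers to at most 3.03 CPM in the lines and at least 33.5 CPM in the tissues. Of these lists, TYROBP and C1QB had 0 counts in all 22 cell line libraries. In tissue, a lower level can stand for fewer cells of a type or for less RNA per cell, and these cannot be told apart.

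**Figure D1:**
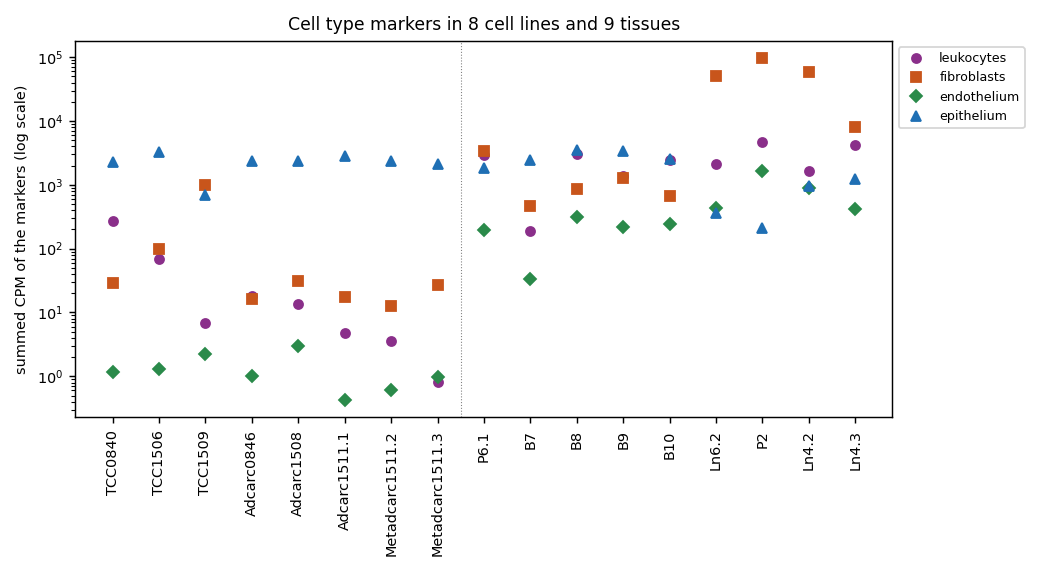
Summed CPM (log scale) of the leukocyte, fibroblast, endothelial and epithelial markers in each cell line (mean of its libraries, left of the dotted line) and tissue. The 9 tissues lie above all 8 lines for the endothelial markers, while the epithelial markers overlap. P2 holds the most fibroblast (97410 CPM) and leukocyte markers (4710 CPM) and the fewest epithelial markers (211.4 CPM).

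TPM, which divide counts by gene length before scaling, allow the 7 genes to be set beside each other. In the cell lines, JAK1 was the most abundant, with a median of 94.1 TPM over the 8 lines. It was followed by HRAS (31.5 TPM), STAT3 (29.2 TPM), EGFR (27.9 TPM) and PDPK1 (27.8 TPM), whose ranges over the lines overlapped, and then by PIK3R3 (4.09 TPM) and EGF (0 TPM). In the 9 tissues, JAK1 had a median of 117.9 TPM, STAT3 of 80.0, EGFR of 30.96, HRAS of 16.5, PDPK1 of 16.3, PIK3R3 of 3.24 and EGF of 0.020 TPM. The transcription factor thus held the second place in the tissues and one of several similar places in the lines.

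The ligand EGF was listed at or near 0 in most samples. TCC1506 was the one line with more than 1 count, with 1.54, 0.543 and 0.606 CPM in its libraries (27, 9 and 11 counts). TCC1509 and Adcarc1511.1 had 1 count each over 3 libraries, and the other 5 lines had 0. Among the tissues, EGF had 107 counts in Ln4.2 (7.69 CPM) and 149 in Ln4.3 (10.3 CPM), 15 in Ln6.2, 4 in B10, 1 in B9 and 0 in P6.1, P2, B8 and B7. The highest values were therefore those of the 2 PAC metastases of patient 4, and Ln6.2 was the next highest tissue. All 3 are lymph node samples, so that metastasis and tissue site cannot be told apart. A count of 0 allows up to 3 counts, which is between 0.151 and 0.195 CPM in a line library and between 0.166 and 0.252 CPM in a tissue, for counting error only.

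The receptor EGFR was expressed in every sample. TCC1506 had 245.1, 108.0 and 215.8 CPM and TCC0840 173.4 and 170.4 CPM, above every library of the other 6 lines, which lay between 23.3 and 79.9 CPM. The third TCC line, TCC1509, had 37.8, 39.2 and 41.2 CPM and the lowest mean of all lines. Among these 6 lines, the library ranges of neighbours in the order of means overlapped, from Adcarc1508 (75.2 ± 5.45 CPM, SD, n = 3) through Adcarc0846, Metadcarc1511.2, Metadcarc1511.3 and Adcarc1511.1 (45.7 ± 21.4, n = 3) to TCC1509. In the tissues, EGFR was at 189.2 CPM in B9, 136.4 in B8, 108.2 in P6.1, 99.1 in B7, 70.5 in Ln4.3, 66.7 in Ln4.2, 62.8 in B10, 53.8 in Ln6.2 and 48.3 in P2. Lines and tissues covered nearly the same range.

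HRAS, the GTPase between receptor and RAF kinases, was between 35.0 (TCC1509) and 69.0 CPM (TCC1506) in the means of the lines, and between 17.97 (P2) and 39.9 CPM (Ln4.3) in the tissues. Only the means of TCC1509 and TCC0840 lay below the highest tissue. Adcarc1511.1 held 39.6, 42.4 and 70.3 CPM in its libraries, so that 1 library lay above the mean of every line.

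JAK1 was between 127.3 (TCC0840) and 271.4 CPM (TCC1509) in the lines. Its tissues spread more, from 64.6 CPM in B10, 116.6 in B8 and 139.0 in B9 to 360.6 in P6.1, 446.3 in Ln6.2 and 491.6 in P2, with B7 (243.5), Ln4.2 (267.6) and Ln4.3 (288.9) between them. The 3 tissues with the lowest JAK1 were the bladder tumors from which no line was derived.

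STAT3 was higher in every tissue but B7 than in any of the lines. The libraries of Adcarc0846 had 158.9 and 153.5 CPM, of TCC1506 133.9, 133.6 and 151.4 CPM, and of Adcarc1508 138.1, 129.0 and 110.3 CPM. TCC0840 had 118.4 and 76.9 CPM, while all libraries of TCC1509 and of the 3 lines of patient 4 were between 49.4 and 91.6 CPM. The tissues had 140.3 CPM in B7, 169.8 in B10, 221.2 in B9, 224.7 in Ln4.3, 251.2 in B8, 274.3 in Ln4.2, 398.2 in Ln6.2, 420.9 in P6.1 and 459.7 in P2. B7 was the tissue that lay within the range of the lines, and it was also the tissue with the lowest sums of leukocyte, fibroblast and endothelial markers. Set against JAK1 per length, STAT3 had a ratio of TPM between 0.145 (TCC1509) and 0.598 (Adcarc0846) in the lines and between 0.413 (B7) and 1.89 (B10) in the tissues. The ratio was above that of all 8 lines in 7 tissues, and within their range in B7 and in Ln4.3 (0.558).

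PIK3R3 was the lowest of the genes apart from EGF. Its line means ran from 0.827 ± 0.328 CPM (Adcarc0846, SD, n = 2) and 0.842 ± 0.385 (TCC0840, n = 2) over 1.59 ± 0.230 (Adcarc1508, n = 3) to 7.00 ± 1.49 (Metadcarc1511.3, n = 3). The tissues had 31.7 CPM in P2, 10.7 in Ln4.2, 6.71 in B7, 4.14 in Ln4.3, 2.90 in Ln6.2, 2.54 in B8, 2.15 in B9, 1.02 in B10 and 0.752 in P6.1. P2 stood far above the rest, and its own line Adcarc0846 was the lowest of the lines.

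PDPK1 was the most even of these genes among the lines, with means between 19.5 (Adcarc0846) and 33.4 CPM (Metadcarc1511.2). All neighbours in its order overlapped. The tissues held between 8.79 (B10) and 26.8 CPM (B7), with a median of 17.9 CPM.

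**Figure D2:**
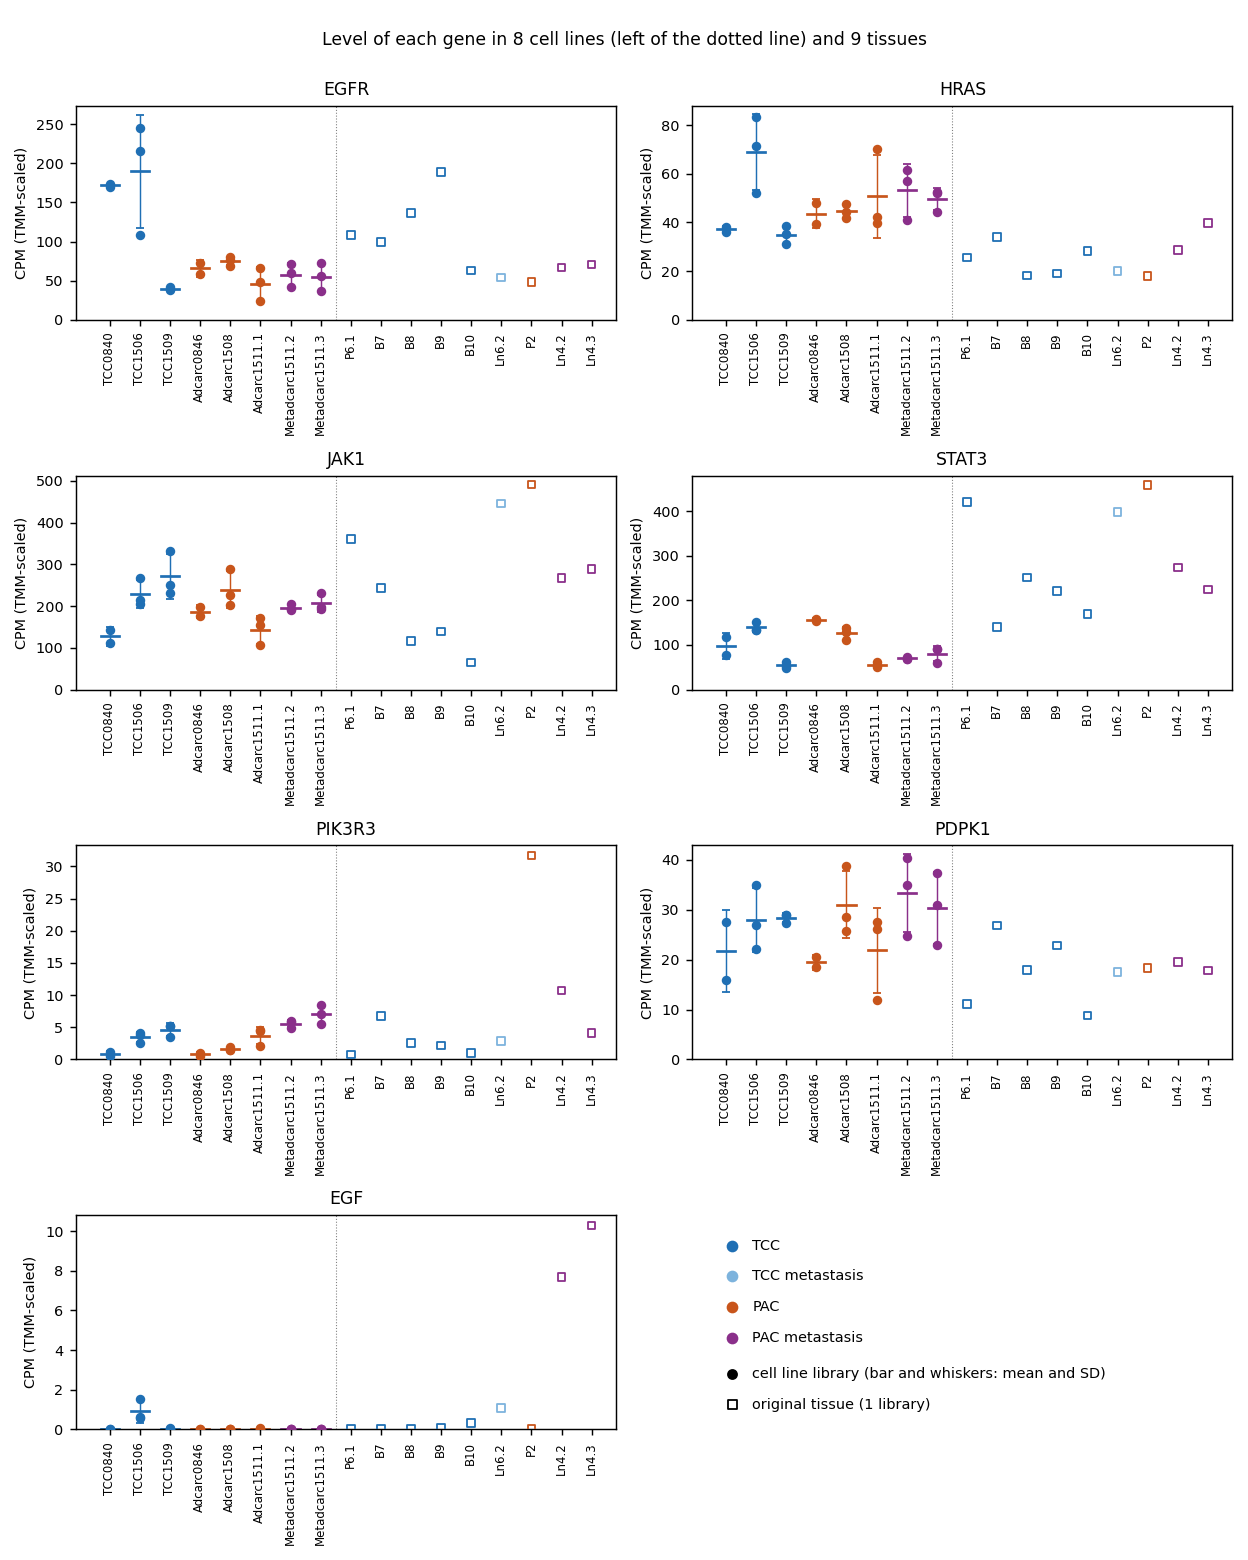
CPM (TMM-scaled, linear axes from 0) of each gene in 8 cell lines (filled points are libraries, bars and whiskers the mean and SD) and 9 tissues (open squares, 1 library each), colored by class. EGFR is above 100 CPM in every library of TCC0840 and TCC1506, PIK3R3 reaches 31.7 CPM in P2, and EGF exceeds 2 CPM in Ln4.2 and Ln4.3 alone.

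Which genes changed between a tumor and the cells grown from it was tested over 5 pairs, with the pair as a covariate. A gene was called where the adjusted p did not exceed 0.01 and the change was at least 2-fold. EGF reached 10 counts neither in all 5 lines nor in all 5 tissues and was not tested. None of the other 6 genes was called, where 1.33% of all 12851 genes tested were (171 genes, 166 of them lower in the lines). By unadjusted p, 3569 of all genes were under 0.05, and the DESeq2 Wald test called 1873 genes, STAT3 among them.

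STAT3 had the largest mean difference of the 6 genes relative to its error. In the lines of the pairs it was at 156.2 CPM against 459.7 in P2, 139.6 against 140.3 in B7, 54.9 against 420.9 in P6.1, 70.6 against 274.3 in Ln4.2 and 80.8 against 224.7 in Ln4.3. It was lower in the line in 5 of 5 pairs, but in TCC1506 (139.6 ± 10.2, SD, n = 3) the difference from B7 was smaller than the spread between the libraries. The log2 fold change was -1.67 (SE 0.45, adjusted p = 0.0800), and over 14 alternatives it stayed between -2.01 and -0.86, with adjusted p from 0.00298 (DESeq2) to 0.999. The highest of these p-values came from the 2 pairs of Adcarc0846 and of TCC1506 without its replicate 3, whose line and tissue libraries share a series of sample numbers, for which the log2 fold change was -0.86. Replicate 3 of TCC1506 and the lines of the other 3 pairs are of another series of numbers than their tissues, and in all 5 their RNA was isolated with different kits, so that these and the culture cannot be told apart. In every pair, the tissue also had more leukocyte, fibroblast and endothelial markers than its line, and the part of these cells in the STAT3 difference was not tested.

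HRAS was higher in the line in 5 of 5 pairs. It stood at 43.6 CPM against 17.97 in P2, 69.0 against 34.0 in B7, 35.0 against 25.6 in P6.1, 53.2 against 28.7 in Ln4.2 and 49.6 against 39.9 in Ln4.3. Its log2 fold change was 0.73 (SE 0.23, adjusted p = 0.107). JAK1 was lower in the line in 5 of 5 pairs, with single log2 ratios from -1.39 (Adcarc0846) to -0.093 (TCC1506) and a log2 fold change of -0.63 (SE 0.26, adjusted p = 0.179). PDPK1 was higher in 5 of 5 pairs by CPM scaled with TMM factors, from 0.061 (TCC1506) to 1.36 (TCC1509) on the log2 scale, but in 4 of 5 by CPM scaled to the total count, where TCC1506 had 0.978 times the level of B7. It had a log2 fold change of 0.54 (SE 0.27, adjusted p = 0.247). None of these 3 passed the threshold. In TCC1506, the differences of JAK1 (228.3 ± 33.5 against 243.5 CPM) and PDPK1 (28.0 ± 6.43 against 26.8 CPM, both SD, n = 3) were smaller than the spread between its libraries, as was that of PDPK1 in Adcarc0846. The 2 pairs of PAC metastasis come from 1 dog and are not independent.

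EGFR and PIK3R3 had no common direction. EGFR was higher in Adcarc0846 (log2 ratio 0.44) and TCC1506 (0.94) than in their tissues, and lower in TCC1509 (-1.46), Metadcarc1511.2 (-0.21) and Metadcarc1511.3 (-0.37). In Metadcarc1511.2 (57.6 ± 15.3 against 66.7 CPM) and Metadcarc1511.3 (54.7 ± 18.2 against 70.5 CPM, both SD, n = 3) the difference was smaller than the spread between libraries. The log2 fold change of EGFR was -0.18 (SE 0.38, adjusted p = 0.781) and turned positive without the pair of TCC1509 (0.14). PIK3R3 ranged from a log2 ratio of -5.26 in the pair of Adcarc0846 and P2 to 2.61 in that of TCC1509 and P6.1. Its log2 fold change of -0.60 (SE 1.16, adjusted p = 0.764) became 0.24 without the pair of Adcarc0846, so that 1 pair set its sign.

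**Figure D3:**
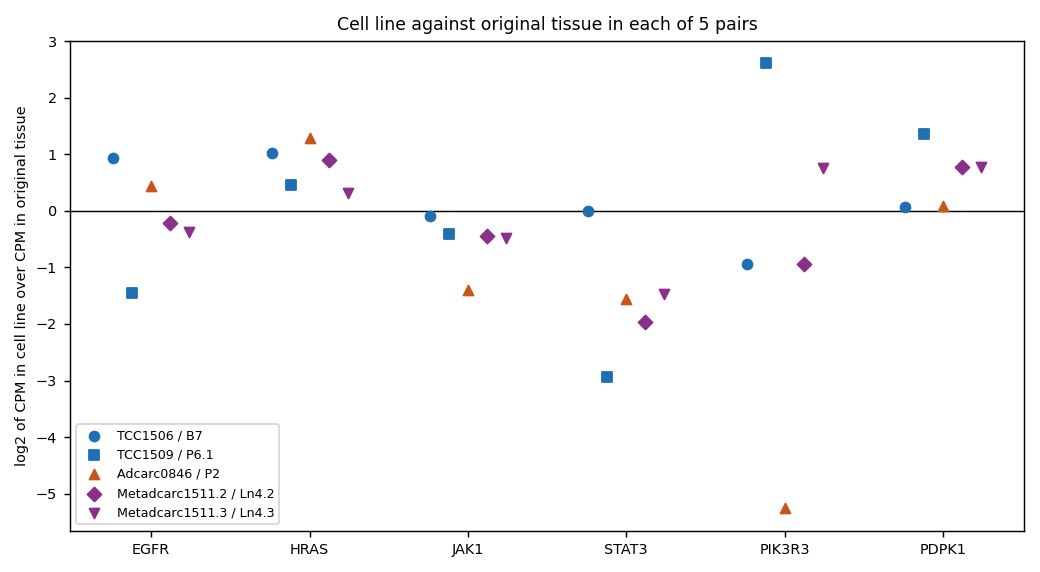
Log2 ratio of CPM in the cell line (mean of libraries) to CPM in its original tissue for 6 genes in each of the 5 pairs, where 0 stands for equal levels. All 5 points of HRAS and PDPK1 lie above 0 (4 of 5 for PDPK1 when CPM are scaled to the total count) and all 5 of JAK1 and STAT3 below it, while EGFR and PIK3R3 have points on both sides.

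In the PAC metastasis class alone, with both metastasis lines set against Ln4.2 and Ln4.3, 1 of the 7 genes was called, against 11.2% of all 15123 genes tested. This was EGF, which had 0 counts in all 6 libraries of the lines and 107 and 149 counts in the tissues. Against a floor of 3 counts per library, it was at least 51.9-fold lower in the lines (edgeR adjusted p = 0.00906, 0.00623 to 0.0101 over 8 alternatives). Both pairs of this class come from 1 dog, so that its p-values do not measure the spread between dogs. EGF entered the test through the tissues, where it is high, so that its call is no evidence about the list. STAT3 missed the threshold (log2 fold change -1.74, SE 0.22, adjusted p = 0.0123) and was called without replicate 2, without replicate 3 and without the pair in the model, and by DESeq2, which did not call EGF. PDPK1 had a log2 fold change of 0.74 (SE 0.19, adjusted p = 0.0503), HRAS of 0.59 (SE 0.21, adjusted p = 0.108), JAK1 of -0.49 (SE 0.18, adjusted p = 0.107), EGFR of -0.30 (SE 0.15, adjusted p = 0.202) and PIK3R3 of -0.12 (SE 0.55, adjusted p = 0.873). In these 2 lines, 6 of the 12 leukocyte markers, 1 of the 6 fibroblast markers (DCN) and 1 of the 4 endothelial markers (ICAM2) had 0 counts. The other markers had counts, such as 1862 for FBLN1 and 74 for VWF over both lines. The tissues had summed leukocyte markers of 1653 and 4130 CPM. The part of non-tumor cells in the EGF level of the metastases was not tested.

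In the TCC class, with TCC1509 and TCC1506 set against their tissues, 0 of 6 genes tested and 0% of 13599 genes were called by edgeR. The unadjusted p was under 0.05 for 845 of all genes, and DESeq2 called 489, none of them among these 6. Log2 fold changes were -1.49 for STAT3 (SE 1.03), 0.78 for PIK3R3 (SE 1.39), 0.72 for HRAS (SE 0.47), 0.69 for PDPK1 (SE 0.61), -0.27 for EGFR (SE 0.84) and -0.27 for JAK1 (SE 0.47), with adjusted p of at least 0.905. EGF was not tested, with 47 counts in TCC1506 against 0 in B7. It was at least 4.65-fold higher in that line, the opposite of the metastasis pairs.

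Whether the change from tissue to line differed between TCC and the PAC-derived pairs was tested as an interaction, in which 0 of 6 genes and 0% of 12851 genes were called (1209 with an unadjusted p under 0.05, and 381 called by DESeq2, none of these 6). The largest difference was that of PIK3R3, at 2.36 on the log2 scale (SE 2.34, adjusted p = 0.767), and that of STAT3 was 0.25 (SE 0.99, adjusted p = 0.955). With errors of this size, a difference of several fold was not detectable for PIK3R3.

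The lines were then compared with each other against the spread between the libraries of a line. Of the 6 genes tested, 5 differed among the 8 lines, where 65.3% of all 13916 genes did. The log2 range from the lowest to the highest line, which chance alone makes positive, was 3.05 for PIK3R3 (edgeR adjusted p = 3.58e-06), 2.31 for EGFR (adjusted p = 1.52e-05), 1.52 for STAT3 (adjusted p = 1.87e-06), 1.08 for JAK1 (adjusted p = 0.00299) and 1.02 for HRAS (adjusted p = 0.00955). PDPK1 did not pass, with a range of 0.78 (adjusted p = 0.273). JAK1 and HRAS lost their calls when replicate 1, 2 or 3 was left out, and HRAS also without the count filter, while EGFR, PIK3R3 and STAT3 passed in these fits. EGF, which came from TCC1506 alone, was called without the filter. The lines thus differed in most of these genes, as they did in most of all genes tested. Genes with a symbol came partly from lists ranked by expression in the lines, so that the 2 shares are not strictly comparable.

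The lines of patient 4 allow the metastasis lines to be compared with the primary tumor line of 1 dog. The p-values measure the spread between cultures. A difference between single lines therefore cannot be told from one between metastasis and primary tumor. None of the 6 genes tested was called between Metadcarc1511.2 and Metadcarc1511.3 together and Adcarc1511.1, where 10.4% of all genes were (1444 of 13916, with 5347 at an unadjusted p under 0.05, and none of the 6 by DESeq2). EGFR was at 65.7, 48.2 and 23.3 CPM in Adcarc1511.1, and at 41.4, 71.7 and 59.8 and 36.2, 72.7 and 55.3 CPM in the metastasis lines. The log2 differences were 0.71 for PIK3R3 (SE 0.29, adjusted p = 0.0780), 0.50 for PDPK1 (SE 0.27, adjusted p = 0.172), 0.45 for JAK1 (SE 0.18, adjusted p = 0.0702), 0.40 for STAT3 (SE 0.17, adjusted p = 0.0793) and 0.26 for EGFR (SE 0.29, adjusted p = 0.559). Replicate 3 of Adcarc1511.1 had the lowest EGFR, JAK1, PIK3R3 and PDPK1 and the highest HRAS of its line. Without replicate 3 of each line, the difference fell to 0.081 for PDPK1 and to -0.04 for EGFR.

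Between the classes, 0 of 6 genes and 0% of 13755 genes were called in the tissues (5 primary TCC against P2, Ln4.2 and Ln4.3, with 3333 genes at an unadjusted p under 0.05 and 1435 called by DESeq2, none of these 6). The median log2 difference of all genes was 0.15 there. EGFR was higher in TCC by 1.08 on the log2 scale (SE 0.38, adjusted p = 0.127), with 4 of 5 TCC tissues above all 3 others. Ln4.2 and Ln4.3 come from 1 dog and are not independent, but the fit took them as separate samples. PIK3R3 had a log2 difference of -2.38 (SE 0.81, adjusted p = 0.114), which was -1.28 without P2, and JAK1 one of -0.77 (SE 0.52, adjusted p = 0.398). The PAC-derived tissues had summed fibroblast markers of 8127 to 97410 CPM and the 5 TCC tissues of 467.2 to 3392 CPM, and what these add to the differences was not tested. In the lines, 0 of 6 genes and 0% of 12557 genes were called between 3 TCC and 5 PAC-derived lines (1079 with an unadjusted p under 0.05, and 105 called by DESeq2, none of these 6). EGFR was 1.17 higher in TCC lines on the log2 scale (SE 0.44, adjusted p = 0.525), which came from TCC0840 and TCC1506, while the mean of TCC1509 was below those of all PAC-derived lines. Of the 5 PAC-derived lines, 3 come from 1 dog and were likewise taken as separate samples.

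Other genes of the same pathways were described by a list of 35 with an identifier, of which 23 were tested over the 5 pairs. Of these, 1 was lower in the lines and 0 were higher, where 1.33% of all genes were called, and their median log2 fold change was 0.006 against -0.004 in all genes tested. The other listed genes did not pass the count filter, so that this median does not cover them. Summed over the pairs, FGF2 was 3.8-fold and IL20RB 2.9-fold higher in the lines. IL6 had 1 count in the lines against 2251 in the tissues, and IGF1 had 0 against 1032. These are named because of their values. Pathway genes known by symbol alone, such as other EGFR ligands and AKT kinases, were not analysed here.

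Of the 8 growth factors and receptor kinases, 5 were tested and KDR, the main VEGF receptor of endothelium, was called as lower in the lines. It had between 1 and 9 counts in each of the 5 lines against between 226 (B7) and 2930 (P2) counts in their tissues. The log2 fold change was -10.28 (SE 1.15, adjusted p = 0.00751), and the call was lost without the pair of Adcarc0846, Metadcarc1511.2, Metadcarc1511.3 or TCC1509 and without replicate 2. TEK, the angiopoietin receptor, had 28 counts over the 5 lines and 3550 over the tissues (log2 fold change -8.06, SE 1.14, adjusted p = 0.0167). Neither KDR nor TEK reached 10 counts in all 5 lines. Both entered the test through the tissues, where they are high, so that the call of KDR is no evidence about the list. VEGFA, the ligand of KDR, was between 1.29 and 2.78 higher on the log2 scale in each line than in its tissue, with a log2 fold change of 1.73 (SE 0.29, adjusted p = 0.0272), and reached 1403 CPM in TCC1506. The endothelial markers were at most 3.03 CPM in sum in all lines, and their part in the differences of KDR and TEK was not tested. The role's median over the 5 genes tested was -2.83.

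The 3 RAS and RAF genes had a median log2 fold change of 0.025, and none was called. ARAF, a RAF kinase, had 0.03 (SE 0.20, adjusted p = 0.947) and SPRY2, an inhibitor of receptor tyrosine kinase signals, had 0.85 (SE 0.42, adjusted p = 0.241).

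Of the 16 JAK-STAT genes, 8 were tested and none was called, with a median of -0.83. IL2RG, the common gamma chain of lymphocyte cytokine receptors, had 0 counts in 4 of the 5 lines, against 21 to 1302 counts in their tissues, and 63 counts in TCC1509 against 30 in P6.1 (adjusted p = 0.0811). OSM, a cytokine of the IL6 family, had 43 counts in Adcarc0846, 0 in the other 4 lines and 11 to 91 in the tissues (adjusted p = 0.0917). IL2RG and OSM also entered the test through the tissues. Towards the lines, IL11, another cytokine of that family, had a log2 fold change of 1.47 (SE 0.57, adjusted p = 0.157) and STAT6, which transduces IL4 signals, had 0.04 (SE 0.19, adjusted p = 0.905). JAK2 and TYK2, kinases of the same family as JAK1, had log2 fold changes of -0.39 (SE 0.23) and -0.21 (SE 0.25), and whether these differ from that of JAK1 was not tested.

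Of the 8 PI3K genes and targets, 7 were tested and none was called, with a median of 0.58. CCND1, a cyclin of G1 phase, had a log2 fold change of 1.19 (SE 0.43, adjusted p = 0.138) and CDKN1A, an inhibitor of cyclin-dependent kinases, one of 0.74 (SE 0.24, adjusted p = 0.118). BCL2, which protects from apoptosis, was at -0.50 (SE 0.41, adjusted p = 0.453).

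**Figure D4:**
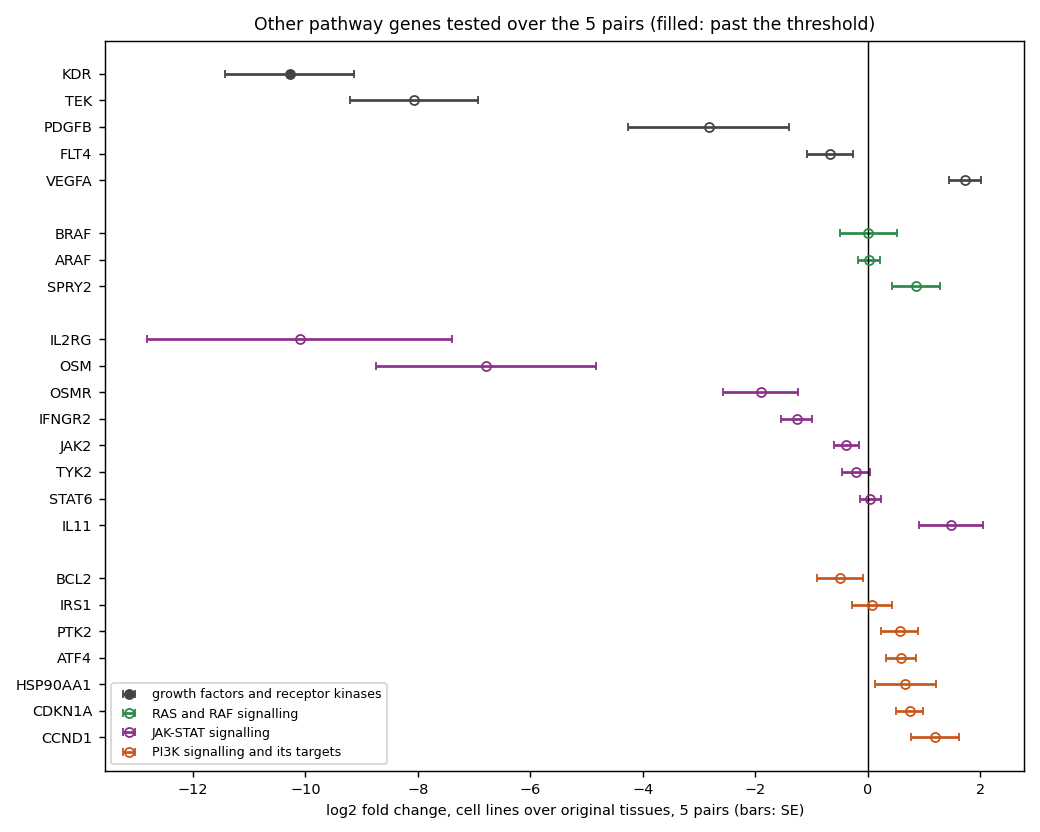
Log2 fold change (points) and SE (bars) of the 23 other pathway genes tested over the 5 pairs, grouped by role, with the gene past the threshold filled. KDR at -10.28 is the filled point, and the genes of PI3K signalling lie between -0.50 and 1.19. Where a gene had 0 counts in most lines, as IL2RG, the fitted size depends on the fit's prior count.

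In PAC metastasis, 33 of the 35 genes were tested, 8 were lower in the lines and 0 higher, where 11.2% of all genes were called, with a median of -0.24 against -0.047 in all genes. These 8 are named because of their values, and both pairs of this class come from 1 dog. KDR, TEK, the growth factors IGF1 and FGF23, the cytokines IL6 and IL10 and the receptor chain IL2RG had at most 14 counts over both lines, and entered the test through the tissues. IL6 had 0 counts against 2087 in Ln4.2 and 26 in Ln4.3 and was at least 438.3-fold lower over both pairs, but at least 10.5-fold in the pair of Ln4.3 alone. IGF1 had 0 against 294 and was at least 60.1-fold lower. OSMR, the oncostatin M receptor that acts through JAK1 and STAT3, was still expressed in these lines, at 62.3 CPM on average against 473.4 CPM in the tissues (edgeR adjusted p = 0.00662, a call lost without the pair in the model). Between the metastasis lines and Adcarc1511.1, 2 of 26 pathway genes tested were called, where 10.4% of all genes were, both higher in the metastasis lines and named because of their values. BCL2 had a log2 difference of 1.76 (SE 0.35, adjusted p = 0.00109) and the IL22 receptor chain IL22RA1 one of 2.39 (SE 0.53, adjusted p = 0.00240). Both calls were lost without replicate 2, and that of IL22RA1 also without replicate 3. Among the 8 lines, 22 of these 26 genes differed, where 65.3% of all genes did. Here too, the symbols came partly from lists ranked by expression in the lines, which limits this comparison of shares.

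Genes with a pattern like that of each member were sought among 1051 genes with a symbol and a mean of at least 1 CPM, by Pearson's r of log2(CPM + 1) over the 17 lines and tissues, as a description. The samples share dogs, and all contain the contrast of line and tissue. EGFR was most like RHOV (r = 0.838), SLC22A23 (0.779) and PRKAA2 (0.765), and r over the 8 lines alone was 0.947, 0.823 and 0.834. HRAS was most like the translation factor EIF4A1 (0.944), DCAF13 (0.855) and NUDCD1 (0.844), with 0.739, 0.730 and 0.435 over the 8 lines alone. JAK1 was closest to COLGALT1 (0.844), TTBK2 (0.831) and RBL2 (0.810), with 0.365, 0.593 and 0.635 over the 8 lines alone. STAT3 was closest to the matrix genes PXDN (0.886), LOXL2 (0.884) and COL16A1 (0.881), and r over the 8 lines alone was -0.744, 0.638 and 0.411. PIK3R3 was most like NCOA7 (0.770), CCDC80 (0.766) and EXOC3L2 (0.756), with 0.838, 0.972 and 0.637 over the 8 lines alone. PDPK1 was most like DDI2 (0.877), TMEM167B (0.859) and TRIAP1 (0.814), with 0.751, 0.882 and 0.546 over the lines alone. EGF was most like FBXL16 (0.960), ALOX15 (0.808) and TBX1 (0.801), with 0.681, 0.102 and -0.264 over the lines alone. For EGF, whose level was above 1 CPM in Ln4.2, Ln4.3 and Ln6.2 and in 1 library of TCC1506, these values rest on a few samples.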

How the data were processed

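RNA from cell pellets and tissues was sequenced on 4 lanes per library. Per the methods of the study, the authors used Trimmomatic 0.36 for trimming, STAR 2.5.3 for alignment to the genome build CanFam3.1 and RSEM 1.3.0 for quantification of Ensembl genes. They deposited expected counts and TPM per lane without further normalization. Expected counts were summed over lanes, and over the libraries of a line for comparisons with tissues, and rounded. TPM were averaged over lanes.

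The members, lists and named genes were chosen with earlier results of these data known. Named were the 7 members, the genes called over the 5 pairs per role or the 2 with the largest fold change in each direction, and the 3 most similar genes. Tests used edgeR 4.0.16 in R 4.3.3 (TMM, quasi-likelihood F test, Benjamini-Hochberg adjustment) on genes with at least 10 counts in all samples of a group, checked on simulated counts. DESeq2 1.42.0 was an alternative. SE were derived from the F statistic. The reused sample numbers in the titles were read as 2 series, which the labels do not call batches. Lanes of 1 library of Adcarc0846 were assigned by title. Levels used Python 3.11.15. Some genes of the pathway lists are not reported here. Symbols came from the study, and sequences and coordinates were not used here. Whether counting used strand is not given in the sources used here, and genes with near-identical copies can share reads. p-values between lines measure the spread between cultures. Intervals and floors cover counting error only.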

Additional observations from a re-analysis of the deposited data

Results flagged for a closer look

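Of 28 sets of values (the 7 genes in the 5 primary TCC tissues, the 5 PAC-derived lines, the 8 lines and the 9 tissues), 4 held a sample far from the others. About 1 in 20 sets of independent, normally spread values would pass this limit by chance. The sets here overlap, and EGF was at or near 0 in most samples, so that this rate does not hold for them. PIK3R3 was at 31.7 CPM in P2, and the next tissue, Ln4.2, at 10.7 CPM. P2 also had the highest sum of fibroblast markers and the lowest of epithelial markers, and their part in this level was not tested. EGF was at 0.895 CPM in TCC1506, where all 3 libraries had counts and the other 7 lines had at most 1 count each. It was at 0.314 CPM in B10, which rests on 4 counts, and at 0.0186 CPM in Adcarc1511.1, which rests on 1 count among lines at 0 and is within what counting error allows. None of the 6 genes tested differed between TCC and PAC-derived pairs by the interaction test. None of these 6 moved in opposite directions in all pairs of both classes. EGF did not pass the count filter and had no log2 ratio in any pair, so that neither check covered it. It had 47 counts in TCC1506 against 0 in B7, but 0 in the metastasis lines against 107 in Ln4.2 and 149 in Ln4.3.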

How the results depend on the processing

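With DESeq2 size factors the counts of called members were the same in all 8 comparisons. DESeq2's Wald test called 1 of the 6 members (STAT3) over the 5 pairs, where edgeR called none, and called 1873 genes there, 4841 in PAC metastasis, 489 in TCC, 381 for the difference of TCC and PAC-derived pairs, 1435 between tissues and 105 between lines by class. At an adjusted p of at most 0.05 with no fold limit, 2 members were called in PAC metastasis, and the counts of genes were 762 over the 5 pairs, 5678 in PAC metastasis, 3729 between metastasis lines and Adcarc1511.1, 781 between tissues and 3 between lines by class. Without the pair in the model, 435 genes were called over the 5 pairs, and 2 members in PAC metastasis. Without a count filter, 306 genes were called over the 5 pairs and 63 between tissues, which were 3 with DESeq2 size factors and 4 with Ln4.2 and Ln4.3 summed. Within 1 series of sample numbers, 0 genes were called. The cause of these changes was not tested, other than fewer samples or pairs where samples were left out.

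Leaving out 1 replicate or pair, the genes called over the 5 pairs were 22 (without Metadcarc1511.2) to 591 (without TCC1506), and the other 3 pairs left out gave 25 (Metadcarc1511.3), 36 (Adcarc0846) and 58 (TCC1509). Members called in PAC metastasis were 1 to 2. Among the 8 lines 3 members were called without any 1 replicate, and 4078 (without replicate 2) to 7888 genes. Between metastasis lines and Adcarc1511.1 it was 390 (without replicate 2) to 1349 genes, with 805 without replicate 3, between tissues 0 to 11 (without Ln4.3) and between lines by class 0 to 1. Without replicate 1 or 2, TCC0840 and Adcarc0846 had 1 library, assumed to vary like the other lines.

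Directions turned for small log2 fold changes. Over the 5 pairs, EGFR was at 0.013 without the filter, 0.006 without the pair in the model, 0.598 within 1 series of numbers and between -0.419 and 0.143 with 1 replicate or pair left out, where PIK3R3 was between -1.376 and 0.241 (-3.197 within 1 series of numbers), ARAF between -0.062 and 0.091 and STAT6 between -0.034 and 0.121. PIK3R3 in PAC metastasis was 0.009 without the filter, EGFR in TCC 0.145 without the pair in the model, and EGFR between metastasis lines and Adcarc1511.1 between -0.037 and 0.836. Among named genes, 18 values fell short of the threshold they had passed and 14 passed it. Of the other values, 503 log2 values and 251 CPM values kept their direction and side of the threshold or moved within the spread. Outside the spread were 22 CPM values. CPM scaled to the total count were 0.866 to 1.10 times those scaled by TMM.

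The replicate number as a block gave 9721 genes and 5 members among the lines, and 1631 genes and 0 members between metastasis lines and Adcarc1511.1, so that it changed no call of a member. Of 71 same-numbered pairs of libraries, 34 had a correlation over 0.1 (-0.164 to 0.659). In the lines with 3 libraries, 18 of 18 libraries correlated best with those of their own number. Same-numbered libraries thus resembled each other, although the labels give no pairing by number. What they share was not tested, and the main fits did not take it into account. Depth limits EGF and PIK3R3 most, and EGF passed the count filter with all samples in PAC metastasis alone.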

Other observations

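Between the libraries of a line, the 6 genes other than EGF did not vary alike. JAK1 was highest in replicate 1 in 7 of the 8 lines and PDPK1 in 6, while HRAS was highest in replicate 1 in 1 line. Replicate 1 is the library of the lowest passage in every line, and passage cannot be told apart from whatever else same-numbered libraries share. The coefficient of variation over the libraries of a line had a median of 11.5% for STAT3, 12.03% for HRAS, 16.4% for JAK1, 21.5% for EGFR, 22.5% for PIK3R3 and 23.3% for PDPK1. Among these 6 genes, the widest ratio between libraries of 1 line was that of EGFR in Adcarc1511.1, at 2.83-fold, and Adcarc1511.1 was also the line with the widest ratio for HRAS, JAK1, PIK3R3 and PDPK1.

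The bladder tumors without a derived line had more STAT3 than JAK1 per length, with ratios of TPM of 1.54 in B8, 1.14 in B9 and 1.89 in B10, while all other tissues and all lines were below 1.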
